A study of Mus musculus with 10 samples.

Results

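A set of 10 genes of hepatic de novo lipogenesis was examined in the livers of mice given TM5614, an orally active small-molecule inhibitor of plasminogen activator inhibitor-1 (PAI-1), and of mice given the diet alone. The genes were taken by symbol, with earlier results of these data known: Mlxipl, which encodes the transcription factor ChREBP, the enzymes and carrier genes Pklr, Slc25a1, Acly, Acss2, Acaca, Acacb, Fasn and Me1, and Thrsp, which encodes the lipogenic protein Spot 14. All 10 were among the 24421 gene symbols counted, and all 10 passed the filter on low counts that left 11092 genes for testing. Every animal was a male wild type C57BL/6 mouse, 21 weeks old and fed standard chow without restriction. The Chow group (n = 5) received nothing else, and the TM5614 group (n = 5) received TM5614 mixed into the same chow at 20 mg/kg/day for 10 days. One poly(A) RNA library was made from the liver of each mouse. A single dose and a single duration were used, and the hour and feeding state at collection are not given in the sources used here.

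De novo lipogenesis builds fatty acids from surplus carbohydrate and acetate. Glycolysis delivers pyruvate, mitochondria export citrate, and the cytosol turns citrate and acetate into acetyl-CoA, which acetyl-CoA carboxylase converts to malonyl-CoA and fatty acid synthase assembles into palmitate with NADPH as the reductant. In the liver the genes of this route are switched on after feeding by ChREBP, which senses sugar phosphates, and by SREBP-1c, the product of Srebf1, which responds to insulin.

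In TM5614 livers 3 of the 10 genes fell and none rose: Thrsp, which was 5.86-fold lower than in Chow livers, Fasn, which fell by 61.3%, and Acss2, which fell by 46.2%. Of all genes tested 2.77% fell and 1.73% rose by the same rule, 4.50% in either direction, where a change means an adjusted p below 0.05 in edgeR's quasi-likelihood test with Benjamini-Hochberg adjustment over all 11092 genes. The estimate was below 0 for 8 of the 10 genes, against 48.5% of all genes tested, and the median log2 fold change was -0.64 over the 10 genes and 0.01 over all genes. In 4 of the 10 genes (Slc25a1, Acss2, Fasn and Thrsp) every TM5614 liver lay below every Chow liver, which was so for 4.87% of all genes tested. The 10 genes were chosen with earlier results known, so these shares describe the set and do not test it. The 3 falls held in each of the 21 alternative fits, whereas Pklr, Slc25a1, Acly and Acaca passed the threshold in some fits and not in others. In DESeq2 6 of the 10 fell (Pklr, Slc25a1 and Acaca besides the 3), against 5.03% of all genes. Mlxipl, Acacb and Me1 passed it in none. In bulk liver, fewer cells of a type and less RNA per cell cannot be told apart.

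**Figure D1:**
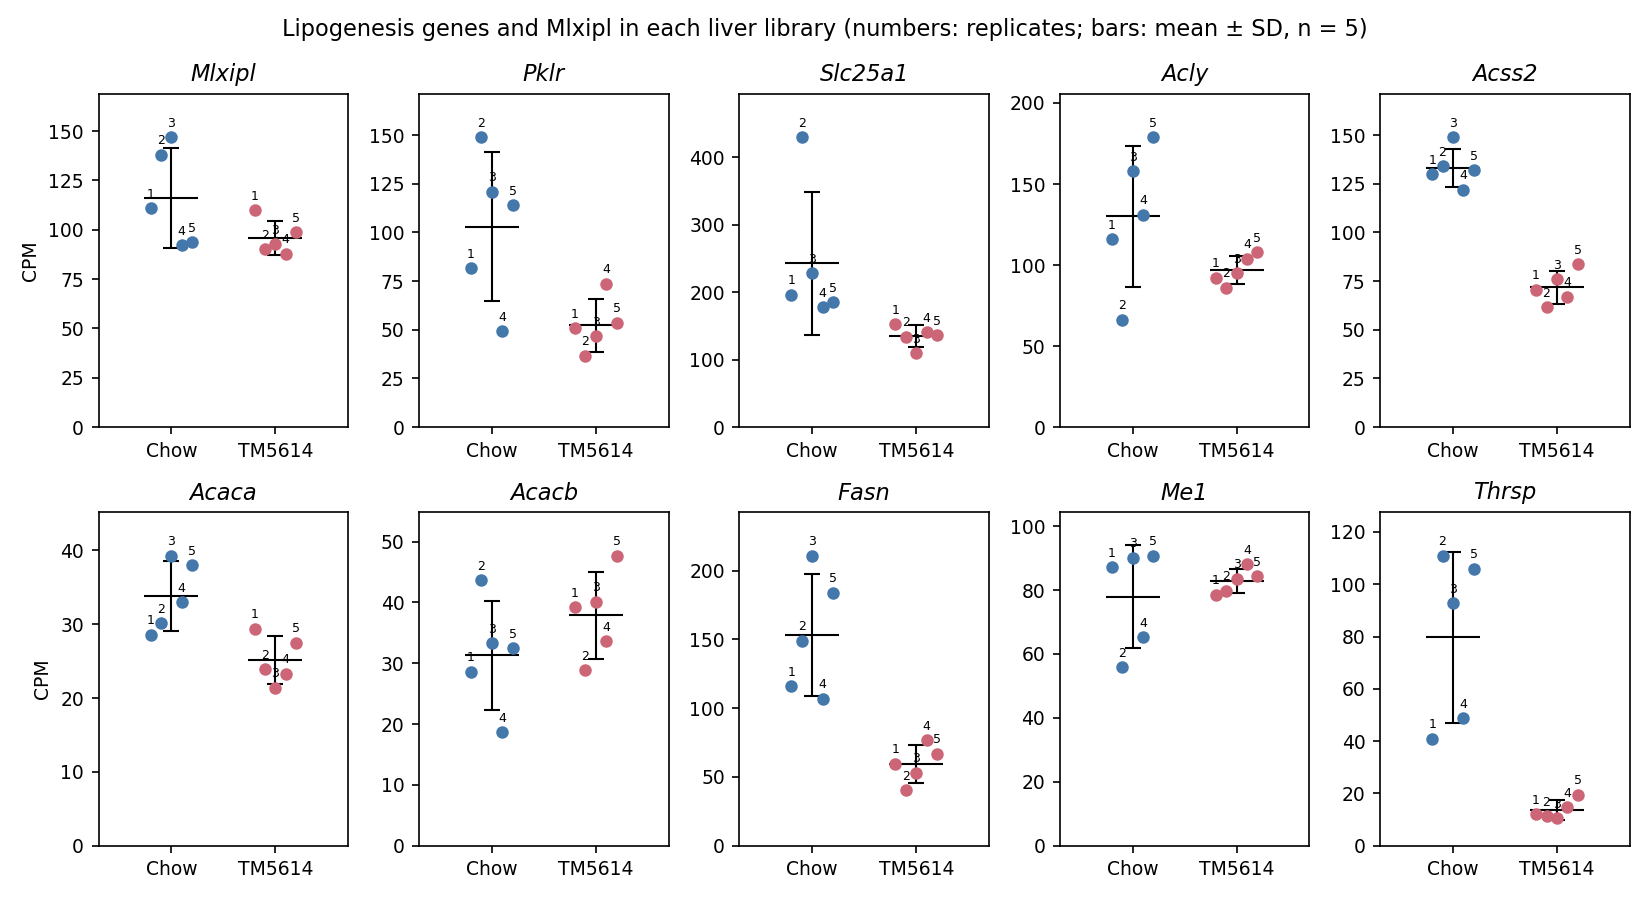
Normalised counts of the 10 genes in CPM (counts scaled to a common library total, vertical axis, each starting at 0) in each liver, with Chow in blue and TM5614 in red, the replicate number above each point, and bars for the mean and SD of 5 livers. The groups do not overlap for Slc25a1, Acss2, Fasn and Thrsp, and Slc25a1 in Chow replicate 2 stands at 430 CPM above the other Chow livers at 178 to 228 CPM.

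The sequences just upstream of the start sites of the 3 genes that fell, and of the liver start site of Pklr, are shown because these genes are textbook targets of ChREBP or SREBP-1c and their promoters are where such factors act. Each is the stretch of 250 bases before the RefSeq start site on GRCm38.p6, written 5′ to 3′ on the strand of the gene. Capitals mark matches, on either strand, to 5 motifs: the E-box CACGTG, a carbohydrate response element pattern made of the arms CACGNG and CNCGTG with 5 bases between them, a sterol response element pattern TCACNCCAC, the CCAAT box, and the GC box GGGCGG.
Thrsp chr7:97417551-97417800 (minus strand): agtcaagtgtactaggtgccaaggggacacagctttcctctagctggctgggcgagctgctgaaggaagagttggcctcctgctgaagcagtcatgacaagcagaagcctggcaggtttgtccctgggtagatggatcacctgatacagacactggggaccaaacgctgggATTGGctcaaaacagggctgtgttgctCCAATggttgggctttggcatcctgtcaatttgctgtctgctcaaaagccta
Fasn chr11:120824548-120824797 (minus strand): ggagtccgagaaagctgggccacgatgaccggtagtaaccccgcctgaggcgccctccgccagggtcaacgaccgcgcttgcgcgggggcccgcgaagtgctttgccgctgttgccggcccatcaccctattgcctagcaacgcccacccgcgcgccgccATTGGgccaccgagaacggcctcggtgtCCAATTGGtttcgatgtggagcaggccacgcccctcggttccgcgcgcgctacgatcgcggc
Acss2 chr2:155517793-155518042 (plus strand): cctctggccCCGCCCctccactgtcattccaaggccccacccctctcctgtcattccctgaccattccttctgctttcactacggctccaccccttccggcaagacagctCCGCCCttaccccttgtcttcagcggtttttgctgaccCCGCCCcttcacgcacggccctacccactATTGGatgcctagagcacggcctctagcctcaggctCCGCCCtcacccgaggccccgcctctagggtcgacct
Pklr chr3:89136373-89136622 (plus strand): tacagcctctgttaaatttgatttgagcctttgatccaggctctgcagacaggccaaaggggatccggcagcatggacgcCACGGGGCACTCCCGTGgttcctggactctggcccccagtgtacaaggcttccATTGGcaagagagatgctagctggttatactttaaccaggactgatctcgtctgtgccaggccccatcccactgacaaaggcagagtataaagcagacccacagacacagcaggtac

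The stretch upstream of Thrsp held 2 CCAAT boxes, at -79 on the opposite strand and at -52 on the strand of the gene. That upstream of Fasn held 3, at -90, -62 and -59, the last pair overlapping on opposite strands. That upstream of Acss2 held 1 CCAAT box and 4 GC boxes. The carbohydrate response element pattern occurred among the 10 genes only in Pklr, with its first base at -170, and it was present in 15 of 32851 RefSeq promoter windows of 300 bases (0.0457%). CCAAT boxes were present in 37.4% of all windows and in 9 of the 13 windows of these genes, GC boxes in 35.7% of all windows and 5 of the 13, the E-box in 7.15% of all windows and in windows of Mlxipl and Slc25a1, and the sterol response element pattern in 1.24% of all windows and in 1 window of Mlxipl, at -136. These matches describe letters in a short window and carry no measurement of binding.

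Thrsp (chr7:97412938-97417730, minus strand, GRCm38, like all gene positions here), whose product promotes malonyl-CoA use and fatty acid synthesis and is induced by thyroid hormone and carbohydrate, showed the widest gap of the 10 genes. Its CPM was 40.9, 111, 92.8, 48.8 and 106 in Chow livers 1 to 5 and 12.1, 11.2, 10.4, 14.7 and 19.5 in TM5614 livers 1 to 5. The highest TM5614 liver was below the lowest Chow liver, and Chow livers 1 and 4 were the lower of their group. The group means were 79.7 ± 32.6 and 13.6 ± 3.69 CPM (SD, n = 5), and the log2 fold change was -2.55 with SE 0.30 and a 95% interval of -3.24 to -1.86 (adjusted p = 0.000720). Thrsp ranked 11 of 11092 genes from the largest fall. These values rest on 308 to 1148 counts per Chow liver and 84 to 190 per TM5614 liver.

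Fasn (chr11:120805846-120824547, minus strand) encodes fatty acid synthase, the multifunctional enzyme that assembles palmitate. It read 116, 149, 211, 107 and 184 CPM in Chow livers 1 to 5 and 59.7, 40.5, 53.2, 76.7 and 67.0 CPM in TM5614 livers 1 to 5. Every Chow liver exceeded every TM5614 liver, with Chow livers 3 and 5 the highest of the 10. The means were 153 ± 44.2 and 59.4 ± 13.7 CPM (SD, n = 5), with a log2 fold change of -1.37 (SE 0.22, 95% interval -1.86 to -0.87, adjusted p = 0.00391). Fasn ranked 66 from the largest fall.

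Acss2 (chr2:155517948-155585724, plus strand) encodes the cytosolic acetyl-CoA synthetase that activates acetate. Its Chow livers read 130, 134, 149, 122 and 132 CPM and its TM5614 livers 70.6, 61.6, 75.9, 67.0 and 83.7 CPM. Acss2 was the steadiest of the 10 genes among Chow livers, with the highest liver 1.22 times the lowest, and the gap between the groups was wider than the spread within either. The means were 133 ± 9.64 and 71.8 ± 8.45 CPM (SD, n = 5), with a log2 fold change of -0.89 (SE 0.11, 95% interval -1.14 to -0.64, adjusted p = 0.000889). In the GENCODE annotation 9.12% of the exon bases of Acss2 are shared with neighbouring genes, of which Ggt7 and Acss2os had at most 8 counts in any liver, while Gss had 350 to 977 counts and a log2 fold change of -0.34 (adjusted p = 0.256). Whether reads in the shared bases were split by strand is not given in the sources used here.

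**Figure D2:**
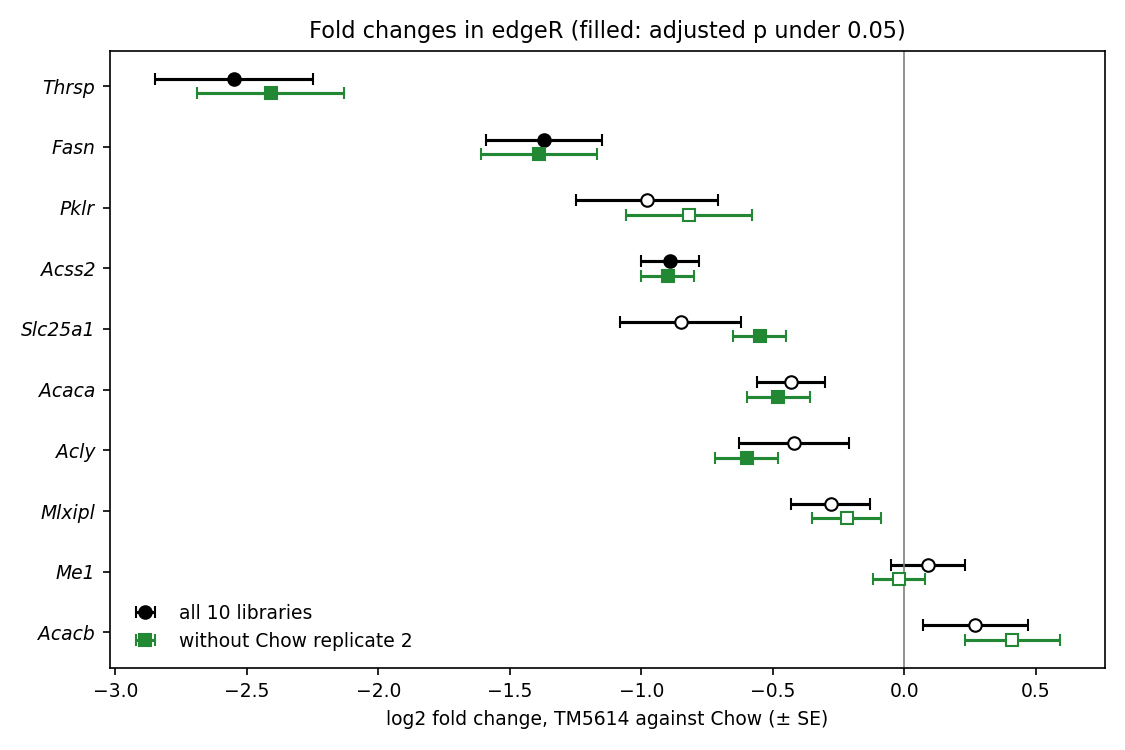
Log2 fold change of TM5614 against Chow (horizontal axis) with its SE for the 10 genes, from edgeR with all 10 libraries (black circles) and without Chow replicate 2 (green squares), filled where the adjusted p was below 0.05. Thrsp, Fasn and Acss2 are filled in both fits, and Slc25a1, Acaca and Acly are filled only without Chow replicate 2, where Slc25a1 moves from -0.85 to -0.55.

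The carbon supply steps were lower in estimate, but their calls depended on the fit. Pklr (chr3:89136142-89146784, plus strand) encodes the liver and erythrocyte pyruvate kinase, which makes pyruvate at the end of glycolysis. Its CPM was 81.7, 149, 121, 49.4 and 114 in Chow livers 1 to 5 and 50.8, 36.7, 46.6, 73.7 and 53.7 in TM5614 livers 1 to 5. The groups overlapped through Chow liver 4, which lay below TM5614 livers 1, 4 and 5. The log2 fold change was -0.98 (SE 0.27, 95% interval -1.59 to -0.36) with an adjusted p of 0.0613. Without Chow replicate 4 it was -1.16 (adjusted p = 0.0145), and DESeq2 gave -0.98 (adjusted p = 0.00952). Of the exon bases of Pklr 22% are shared with Hcn3 on the opposite strand, which had 0 to 6 counts per liver, and gene counts do not separate the liver transcript from the erythrocyte transcript.

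Slc25a1 (chr16:17925223-17928219, minus strand) encodes the mitochondrial citrate carrier that exports citrate to the cytosol. Chow livers 1 to 5 read 196, 430, 228, 178 and 185 CPM and TM5614 livers 1 to 5 read 153, 134, 110, 141 and 136 CPM. All Chow livers exceeded all TM5614 livers, and Chow liver 2 stood far above the rest. The log2 fold change was -0.85 (SE 0.23, 95% interval -1.38 to -0.32, adjusted p = 0.0596) with all livers. Without Chow replicate 2 it was -0.55 (SE 0.10, adjusted p = 0.00580), so that the difference shrank and its error shrank further.

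Acly (chr11:100476353-100528000, minus strand) encodes ATP citrate lyase, which splits exported citrate into acetyl-CoA and oxaloacetate. It read 116, 66.3, 158, 131 and 179 CPM in Chow livers 1 to 5 and 92.2, 86.0, 94.9, 104 and 108 CPM in TM5614 livers 1 to 5. Chow liver 2 was the lowest of all 10 livers, and the other 4 Chow livers, at 116 to 179 CPM, all exceeded the TM5614 livers. The log2 fold change was -0.42 (SE 0.21, 95% interval -0.92 to 0.07, adjusted p = 0.290) with all livers and -0.60 (SE 0.12, adjusted p = 0.0102) without Chow replicate 2. With all 5 Chow livers the difference in Acly was not larger than the spread between replicates.

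Acaca (chr11:84129672-84401651, plus strand) and Acacb (chr5:114146535-114250761, plus strand) encode the acetyl-CoA carboxylases, of which the first is cytosolic and commits carbon to fatty acid synthesis and the second sits at the mitochondrial surface, where its malonyl-CoA restrains fatty acid oxidation. Acaca read 28.6 to 39.3 CPM in Chow livers and 21.4 to 29.4 CPM in TM5614 livers, with means of 33.8 ± 4.71 and 25.1 ± 3.27 CPM (SD, n = 5). Its log2 fold change was -0.43 (SE 0.13, 95% interval -0.73 to -0.13, adjusted p = 0.0949), and the groups overlapped between Chow liver 1 and TM5614 liver 1. Without Chow replicate 2 the adjusted p for Acaca was 0.0275, and with the GC content and length trend removed it was 0.0228. Acacb read 18.7 to 43.6 CPM in Chow livers and 28.8 to 47.7 CPM in TM5614 livers, and its log2 fold change was 0.27 (SE 0.20, 95% interval -0.20 to 0.74, adjusted p = 0.469). The Acacb estimate was 0.13 without Chow replicate 4 and 0.41 without Chow replicate 2, neither past the threshold.

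The balance of the carboxylases was compared as the per-length ratio of Acaca to Acacb, and that of the acetyl-CoA producing enzymes as the ratio of Acss2 to Acly, each with a two-sided exact permutation test over the 252 splits of 10 livers into 5 and 5, adjusted over the 2 ratios. Acaca to Acacb was 0.564, 0.389, 0.665, 0.994 and 0.660 in Chow livers 1 to 5 and 0.424, 0.468, 0.301, 0.391 and 0.325 in TM5614 livers 1 to 5. The geometric mean was 0.626 in Chow and 0.377 in TM5614, a log2 difference of -0.73 (exact p = 0.0317, adjusted p = 0.0317), and the groups overlapped through Chow liver 2. The level of this ratio depends on the lengths used, here 17074 exon bases for Acaca and 9632 for Acacb. Deposited FPKM means of Acaca and Acacb were 3.70 and 3.65 in Chow and 2.74 and 4.41 in TM5614. The log2 difference from FPKM was again -0.73. Acss2 to Acly was 0.584, 1.05, 0.488, 0.485 and 0.382 in Chow livers and 0.398, 0.372, 0.415, 0.334 and 0.404 in TM5614 livers. Its geometric mean was 0.561 in Chow and 0.384 in TM5614, a log2 difference of -0.55 (exact p = 0.0317, adjusted p = 0.0317), with Chow liver 5 inside the TM5614 range. The level of this ratio also depends on the lengths used, here 10163 exon bases for Acss2 and 5279 for Acly. In the deposited FPKM values, mean Acss2 was above mean Acly in Chow (46.5 and 29.0) and in TM5614 (25.0 and 21.6). The log2 difference from FPKM was again -0.55. Without Chow replicate 2 the Acss2 to Acly difference was -0.32 (exact adjusted p = 0.0476). Leaving out Chow replicate 4 or any TM5614 liver raised the exact adjusted p of both ratios to between 0.0556 and 0.0873, so neither call held. The smallest p that the 10 livers allow is 0.00794.

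Mlxipl (chr5:135089890-135138382, plus strand), the gene of ChREBP itself, read 111, 138, 147, 92.2 and 93.7 CPM in Chow livers 1 to 5 and 110, 90.1, 92.8, 87.9 and 98.8 CPM in TM5614 livers 1 to 5. Chow livers 4 and 5 lay within the TM5614 range, and Chow livers 2 and 3 were the highest. The log2 fold change was -0.28 (SE 0.15, 95% interval -0.62 to 0.06, adjusted p = 0.307), so the interval reached from a fall of 0.62 on the log2 scale to a small rise. RefSeq gives Mlxipl promoter windows that begin 17001 bases apart, and gene counts do not separate the transcripts that start at each. Me1 (chr9:86581371-86695953, minus strand) encodes the cytosolic malic enzyme, which supplies NADPH. It read 55.9 to 90.8 CPM in Chow livers and 78.5 to 88.0 CPM in TM5614 livers, with a log2 fold change of 0.09 (SE 0.14, 95% interval -0.24 to 0.41, adjusted p = 0.742) that changed sign to -0.02 without Chow replicate 2.

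**Figure D3:**
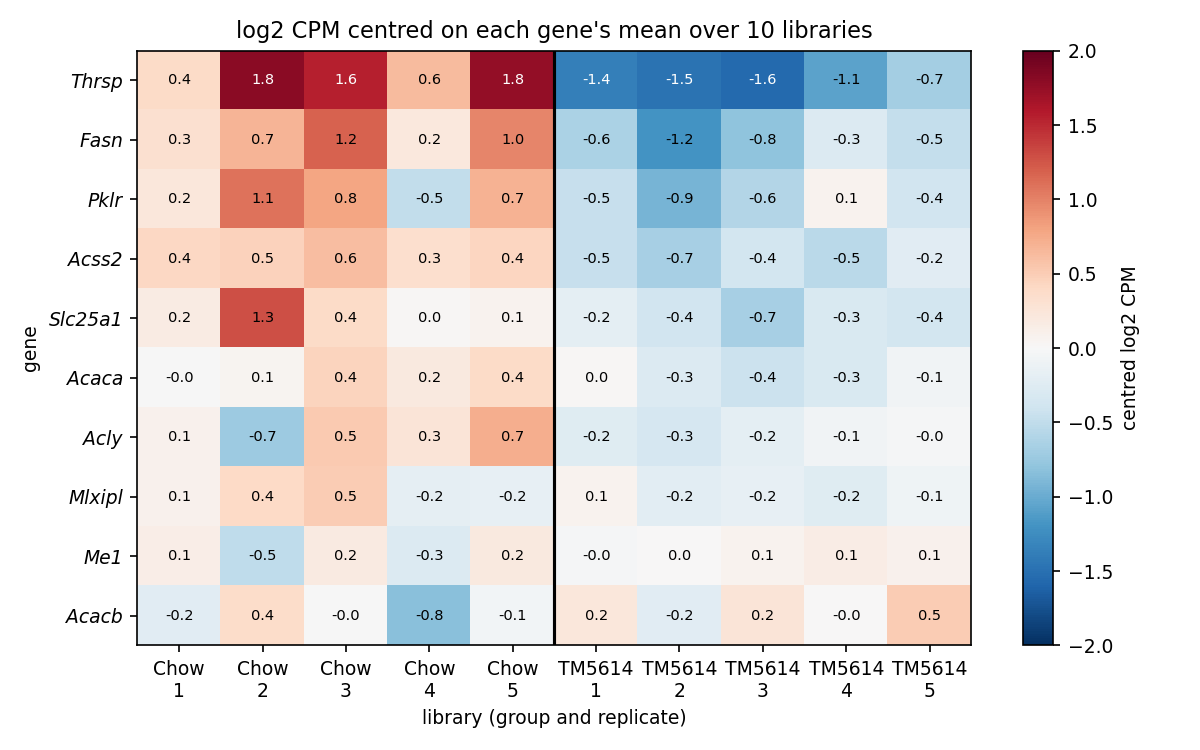
Log2 CPM of the 10 genes (vertical axis) in the 10 livers (horizontal axis), centred on each gene's mean over all livers, with red above and blue below that mean. Thrsp, Fasn, Acss2 and Slc25a1 (0.02 to 1.29 in Chow, -0.67 to -0.19 in TM5614) lie above their mean in every Chow liver and below it in every TM5614 liver, which is not so for the other 6 genes, and Acly and Me1 are below theirs in Chow 2.

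Seen by liver, each Chow liver had 6 to 9 of the 10 genes above the gene's own mean over all livers, and each TM5614 liver had 1 to 3. The median centred log2 CPM of the 10 genes ran from 0.10 to 0.51 in Chow livers and from -0.39 to -0.15 in TM5614 livers, with no overlap. The summed CPM of the 10 genes was 845 to 1306 in Chow and 592 to 726 in TM5614. In Mlxipl, Pklr, Slc25a1, Acly, Acacb, Fasn, Me1 and Thrsp the highest liver was a larger multiple of the lowest in Chow than in TM5614, and in Acss2 it was not. The highest Chow liver was 3.01 times the lowest for Pklr, 2.71 times for Acly and for Thrsp and 2.42 times for Slc25a1, while the matching TM5614 values were 2.01, 1.25, 1.87 and 1.39. This difference in spread was not tested. Within the Chow group, liver 4 was lowest for 6 of the 10 genes. Liver 2 was the highest of all 10 livers for Slc25a1, Pklr and Thrsp and the lowest for Acly and Me1.

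Chow liver 2 also differed from the rest in its library. A smooth trend over gene GC content and length accounted for 43.8% of the variance of its deviations from each gene's mean over the 10 libraries, against 0.474% to 16.4% in the other 9. With that trend removed from every library, 5 of the 10 genes fell, against 3.64% of all genes tested, namely Slc25a1 (-0.54, adjusted p = 0.0153) and Acaca (-0.52, adjusted p = 0.0228) with Acss2 (-1.04), Fasn (-1.25) and Thrsp (-2.44). Without Chow replicate 2, 6 of the 10 fell, against 5.61% of all genes tested in that fit. The part of the library's composition in the values of Slc25a1, Acly and Me1 was not tested beyond these fits.

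Per unit of gene length the order of the genes in Chow livers, in FPKM as deposited, ran from Slc25a1 (143 ± 62.7 FPKM, SD, n = 5) through Thrsp (75.9 ± 31.1), Acss2 (46.5 ± 3.47), Pklr (36.3 ± 13.5), Mlxipl (31.5 ± 6.90), Acly (29.0 ± 9.63), Me1 (21.5 ± 4.49) and Fasn (15.3 ± 4.40) to Acaca (3.70 ± 0.513) and Acacb (3.65 ± 1.05). Of these neighbours only Fasn and Acaca did not overlap in range. In TM5614 livers Thrsp (12.9 ± 3.57 FPKM) stood seventh rather than the second, below Me1 (22.8 ± 1.17), Acly (21.6 ± 2.10) and Pklr (18.4 ± 4.90). Slc25a1 was again the highest, at 79.2 ± 9.41 FPKM, and did not overlap with the next gene, Mlxipl (25.9 ± 2.44). Acacb (4.41 ± 0.853) and Acaca (2.74 ± 0.362) overlapped in Chow but not in TM5614 livers, nor did Thrsp and Fasn (5.90 ± 1.40), while the other neighbours overlapped.

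**Figure D4:**
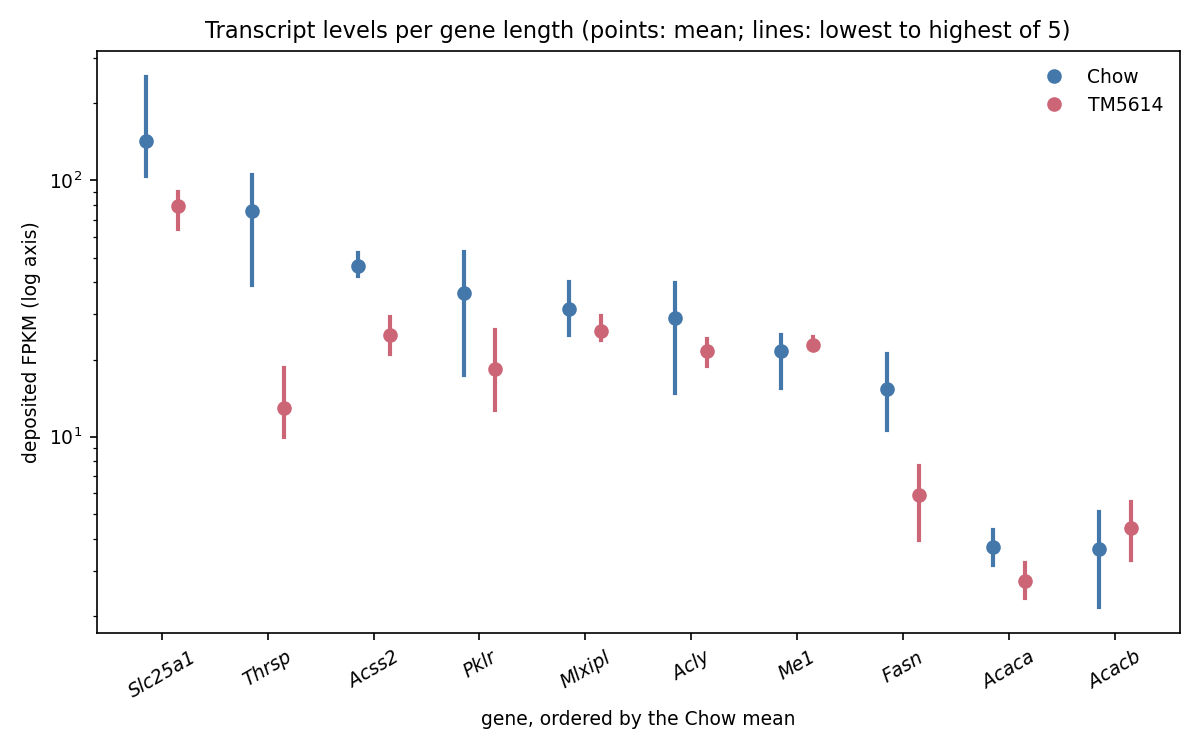
FPKM per gene length as deposited (vertical log axis) for the 10 genes in order of their Chow mean, with points for the mean of 5 livers and lines from the lowest to the highest liver, Chow in blue and TM5614 in red. Slc25a1 is the highest in both groups, Thrsp drops from 75.9 to 12.9 FPKM, and Acaca and Acacb are the lowest pair.

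The genes around the route were examined as lists taken from textbook roles. Most of their members did not pass the test, which holds for genes in general. Of all genes tested 4.50% were called (2.77% lower and 1.73% higher), the share to set beside each list count here and below. Of 9 genes of the pentose phosphate route and related NADPH-producing dehydrogenases, 1 fell: Tkt, a transketolase of the non-oxidative branch, which makes no NADPH. It stood at 148 ± 58.8 CPM in Chow and 72.3 ± 9.44 CPM in TM5614 (log2 fold change -1.03, SE 0.22, adjusted p = 0.0208). The NADPH-producing dehydrogenase genes G6pdx, Pgd, H6pd and Idh1 did not pass the test (adjusted p from 0.0752 to 0.623). Tkt lost its call without TM5614 replicate 3 (adjusted p = 0.0704) and without TM5614 replicate 5 (adjusted p = 0.0576). The median over that list was -0.36, with 8 of the 9 estimates below 0. Of 11 tested genes that supply pyruvate, citrate and acetyl-CoA, 1 fell: Aacs, which activates acetoacetate in the cytosol, at 23.5 ± 12.3 and 6.70 ± 4.19 CPM (-1.79, SE 0.44, adjusted p = 0.0388), and the median was 0.10. Aacs lost its call in 7 of 21 alternative fits, each with 1 library left out (adjusted p up to 0.117). The mitochondrial pyruvate carrier and pyruvate dehydrogenase genes Mpc1, Mpc2, Pdha1, Pdhb and Dlat had estimates from 0.07 to 0.22 and did not pass the test.

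Of 11 partners of malonyl-CoA metabolism and fatty acid synthase, 1 fell, Mid1ip1, the paralogue of Thrsp whose product promotes polymerisation of acetyl-CoA carboxylase. It stood at 38.6 ± 9.01 CPM in Chow and 14.3 ± 1.04 CPM in TM5614 (SD, n = 5), with a log2 fold change of -1.44 (SE 0.16, adjusted p = 0.000437). The lowest Chow liver was at 31.2 CPM and the highest TM5614 liver at 15.8 CPM, so the groups did not overlap. The AMP-activated kinase subunits Prkaa1, Prkaa2, Prkab1 and Prkag1, whose kinase phosphorylates acetyl-CoA carboxylase, had estimates from -0.29 to 0.32 and none passed the test. Over this list the median was -0.16.

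Of 12 partners of ChREBP and regulators of lipogenic transcription, 3 fell and 1 rose. Srebf1, the gene of SREBP-1, fell from 111 ± 27.2 to 30.9 ± 6.81 CPM (-1.84, SE 0.19, adjusted p = 0.000402). Insig1, whose product holds the SREBP escort protein in the endoplasmic reticulum and whose gene is itself an SREBP target, fell from 232 ± 59.7 to 75.5 ± 14.6 CPM (-1.62, SE 0.20, adjusted p = 0.000945). Its relative Insig2 rose from 151 ± 42.2 to 511 ± 95.9 CPM (1.76, SE 0.20, adjusted p = 0.000549). Rxra, the nuclear receptor partner of the liver X receptors, fell by 0.38 on the log2 scale (SE 0.09, adjusted p = 0.0417) and lost that call in 13 of 21 alternative fits. Mlx, the obligate partner of ChREBP, had a log2 fold change of 0.22 (adjusted p = 0.256), and Mlxip, its paralogue, 0.05 (adjusted p = 0.910).

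Of 11 glucose-responsive genes that ChREBP is known to control outside the lipogenic route, 2 rose and 1 fell, with a median of 0.19. G6pc, the glucose-6-phosphatase of glucose release, rose from 188 ± 50.7 to 571 ± 147 CPM (1.60, SE 0.22, adjusted p = 0.00185). Fgf21, a hepatic hormone also induced by fasting, rose from 1.28 ± 0.494 to 10.9 ± 1.74 CPM (3.04, SE 0.24, adjusted p = 0.000136), from at most 17 counts in any Chow liver. Khk, the ketohexokinase that admits fructose, fell from 441 ± 248 to 200 ± 25.5 CPM (-1.14, SE 0.28, adjusted p = 0.0404), with 1 Chow liver at 882 CPM, and lost its call in 6 of 21 alternative fits. The fit without Chow replicate 2 put Khk at -0.73 (adjusted p = 0.00131), and the fit with the GC content and length trend removed at -0.76 (adjusted p = 0.00665). Txnip, which encodes a thioredoxin-binding protein that limits glucose uptake, had a log2 fold change of 0.60 and did not pass the test (adjusted p = 0.144). The called genes of this list thus lay on both sides of 0.

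**Figure D5:**
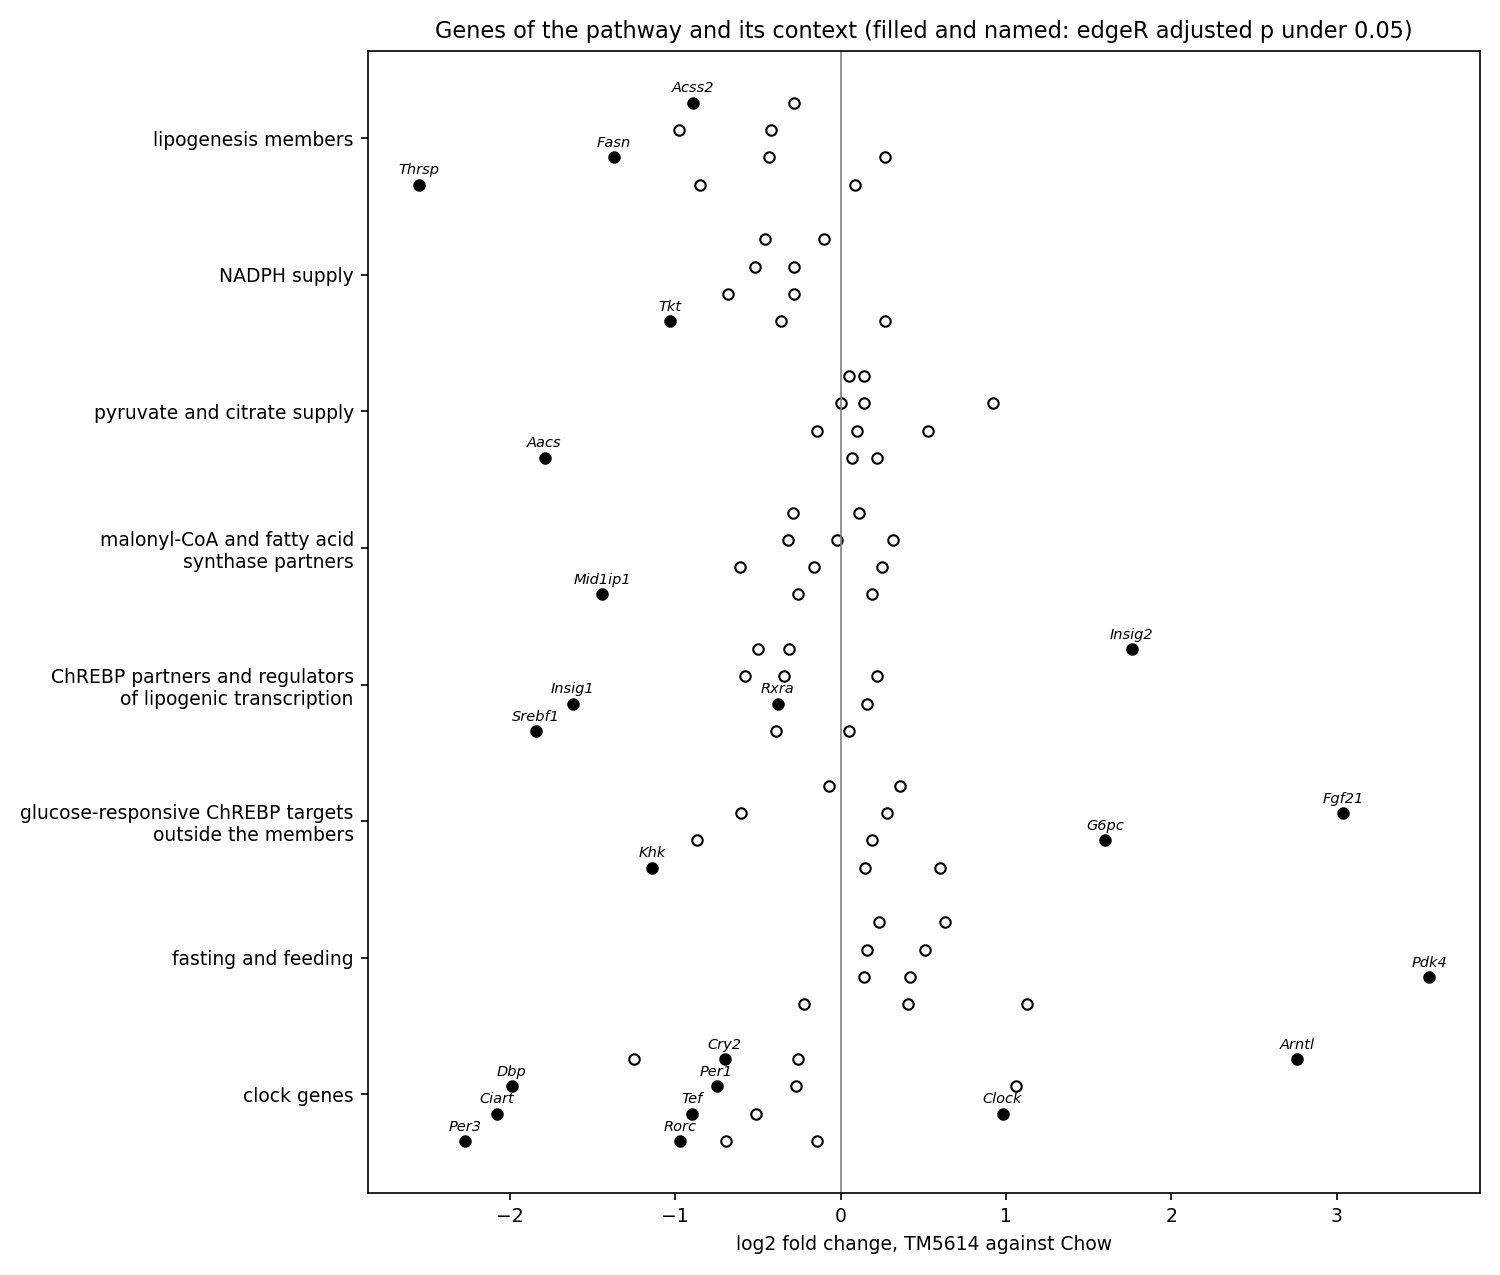
Log2 fold change of TM5614 against Chow (horizontal axis) for each tested gene of the 10 lipogenesis genes and of 7 lists around them (vertical axis, points staggered within a list), filled and named where the edgeR adjusted p was below 0.05. Most points are open, Thrsp at -2.55 and Per3 at -2.27 are the lowest of their lists, and Fgf21 at 3.04 and Pdk4 at 3.56 lie far to the right.

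Lists of clock genes and of fasting and feeding genes were read alongside, where 4.50% of all genes tested were called. Of 16 tested clock genes 2 rose (Arntl, 2.76, and Clock, 0.98) and 7 fell, among them Per3 (-2.27), Ciart (-2.08) and Dbp (-1.99), with a median of -0.70. Of the 7 falls, Per1 (-0.75) lost its call in 8 of 21 alternative fits and Cry2 (-0.70) in 5. Of 10 genes of fasting and feeding 1 rose, Pdk4 (3.56, adjusted p = 0.0122), with a highest value of 144 CPM in TM5614 liver 2, the library that also held the most skeletal muscle RNA. Without that liver the log2 fold change of Pdk4 was 2.51 (adjusted p = 0.00611). Pck1 (0.16, adjusted p = 0.677) and Cpt1a (0.63, adjusted p = 0.123) did not pass the test. Their part in the lipogenic values was not tested.

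Hepatocyte markers were abundant as a sum in every library, at 119502 to 132298 CPM in Chow and 101989 to 120404 CPM in TM5614. Alb made up most of the sum (means of 87718 and 79101 CPM), whereas Ass1 was low (2.56 and 2.09 CPM). Of the 9 listed markers 0 were called. Of these 9, 7 estimates were below 0, with a median log2 fold change of -0.15. Only TM5614 liver 1, at 120404 CPM, lay within the Chow range, and the part of this difference in the lipogenic values was not tested. Kupffer cell markers summed to 83.4 to 264 CPM in Chow and 83.2 to 178 CPM in TM5614, with 10 of 10 estimates below 0 and 0 called, and their part in the lipogenic values was not tested. Endothelial (117 to 202 and 126 to 209 CPM), stellate (226 to 405 and 343 to 452 CPM) and cholangiocyte markers (33.1 to 50.5 and 27.3 to 74.4 CPM) overlapped between the groups. Lymphocyte markers summed to at most 4.93 CPM, and the 6 exocrine pancreas markers to at least 7.03 CPM in Chow and 6.06 CPM in TM5614, of which Cela1 made up nearly all (9.23 ± 3.34 CPM in Chow and 7.13 ± 0.621 CPM in TM5614), Pnlip and Ctrb1 had at most 1 count in any library, and Cpa1, Prss2 and Amy2a5 were at 0 in every library. Skeletal muscle markers summed to 0.849 to 1.54 CPM in Chow and to 1.44 to 4160 CPM in TM5614, where liver 2 held the 4160 and liver 3 the next at 68.0 CPM. Without TM5614 replicate 2 the log2 fold changes were -2.50 for Thrsp, -1.26 for Fasn and -0.85 for Acss2, with adjusted p-values of 0.00283, 0.00881 and 0.00307. Acacb, which muscle also expresses, was lowest of its group in that liver at 28.8 CPM. Adipocyte markers summed to 33.0 to 55.8 CPM in Chow and 53.3 to 124 CPM in TM5614. The 124 CPM belonged to TM5614 liver 2, which also held the 4160 CPM of muscle markers, with Fabp4 at 62.9 CPM. In the other TM5614 livers the sum was 53.3 to 65.6 CPM. Of the 5 markers tested 1 was called, Cidec, a lipid droplet gene that hepatocytes also express (4.99 and 27.1 CPM). Adipose tissue also expresses Fasn, Acly and Thrsp, and the part of these markers in their values was not tested.

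The genes whose log2 levels followed each fallen gene most closely over the 10 livers were taken by the mean absolute difference of centred log2 CPM among 8588 genes. The centring was over both groups, so a gene that is near by this measure has a like fold change by selection. Fasn was nearest to Slc46a3 (0.19) and Dhcr7 (0.21), a cholesterol synthesis enzyme, whose log2 fold changes were both -1.27. Thrsp was nearest to the mevalonate route genes Mvk (0.24) and Mvd (0.31), with log2 fold changes of -2.12 and -2.95. Acss2 was nearest to Apol7a (0.09, log2 fold change -0.92) and 0610007P14Rik (0.10, log2 fold change -0.77).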

How the data were processed

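Liver poly(A) RNA libraries of 10 mice were sequenced as 75 bp single-end reads and aligned to mm10 with STAR. The annotation, tool versions and strand use in counting are not given in the sources used here. Raw counts for each gene symbol were deposited by the authors as whole numbers, with totals of 6398335 to 10874955 per library, and FPKM values, used here for levels per length. The ratios between genes used counts divided by GENCODE exon length, with the FPKM values as an alternative. The deposited log2 values from DESeq2 and the authors' own comparison (fold changes and p-values) were not used.

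Genes passing edgeR's default filter (11092 of 24421) were fitted with TMM factors and tested with edgeR 4.0.16 (quasi-likelihood, two-sided, Benjamini-Hochberg adjustment over all tested genes, threshold 0.05) in R 4.3.3. The scripts were tested on simulated counts. CPM used the TMM library sizes. DESeq2 1.42.0 and limma 3.58.1 (voom with sample quality weights) were alternatives, as were other scalings, filters, a GC content and length trend (spline with 5 degrees of freedom, 99.6% of tested genes covered), a replicate block and each library left out. Groups and replicate numbers came from sample titles. Each mouse gave 1 library, so p-values measure spread between mice together with spread between library preparations, which cannot be told apart. The 20 pairs of libraries within groups all differed beyond sampling noise (lowest chi-square per degree of freedom 7.98). Gene positions were read from GENCODE on GRCm38 and promoter windows from RefSeq on GRCm38.p6, which held windows for all 10 genes. The genes and lists were chosen with earlier results of these data known. Named genes were the 10 lipogenesis genes, the called members of each list with those needed to describe it, and the nearest genes of each called member.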

Additional observations from a re-analysis of the deposited data

Results flagged for a closer look

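Slc25a1 in Chow replicate 2, at 430 CPM, stood apart from the other 4 Chow livers at 178 to 228 CPM, with a gap to the nearest liver of 0.80 of the range of the group. Chance alone sets such a value apart in about 1 in 20 groups, and 1 was found among the 24 groups of 5 livers examined, where 1.20 would be expected. Without that liver the log2 fold change of Slc25a1 was -0.55 in place of -0.85.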

How the results depend on the processing

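The estimates of Thrsp (-2.73 to -2.32), Fasn (-1.48 to -1.23) and Acss2 (-1.04 to -0.84) kept their direction and stayed below an adjusted p of 0.05 in all 21 alternatives. The 3 calls among the 10 genes became 6 in DESeq2, 7 in limma-voom, 5 with the GC content and length trend removed, 6 without both Chow replicate 2 and TM5614 replicate 2, and 3 to 6 with 1 library left out. Over all genes the 499 calls became 900 in DESeq2, 1386 in limma-voom, 1230 without both of those libraries, and 235 to 1031 with 1 library left out, the highest without Chow replicate 2 (1031) and the lower ones without Chow replicate 3 (293) or TM5614 replicates 1 (331), 3 (235) or 4 (259). Scaling by library totals alone gave 224 higher and 245 lower genes, against 192 and 307. The cause of these shifts was not tested. The estimate of Me1 (0.09) turned to -0.03 with the trend removed, -0.02 without Chow replicate 2 and -0.00 without both libraries, within a range of -0.02 to 0.15 with 1 library left out. The log2 differences of Acaca to Acacb and Acss2 to Acly were -0.98 (adjusted p = 0.0571) and -0.31 (adjusted p = 0.114) by exact permutation without both libraries, and ran from -0.90 to -0.56 and from -0.69 to -0.32 with 1 library left out. The deviations of same-numbered livers correlated at 0.03 to 0.32, and the best match carried the same number only for replicate 2. Such low values from 5 pairs cannot decide whether the numbers pair the livers, and the main fit did not pair them. The replicate block gave 555 genes and 3 of the 10, and paired ratios of -0.73 and -0.55 (both adjusted p = 0.125 in an exact sign-flip test, smallest possible p 0.0625). Counts of 84 or more per liver stood behind every value of the 10 genes.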
